A study of Rattus norvegicus with 16 samples.

Results

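Chaperone transcripts were followed in RNA-Seq libraries of fetal rat suprachiasmatic nuclei (SCN), the hypothalamic site of the central circadian clock. The 4 genes were chosen by Ensembl identifier, namely Hspa5 (ENSRNOG00000018294), Hsp90b1 (ENSRNOG00000026963), Hsph1 (ENSRNOG00000000902) and Hspb1 (ENSRNOG00000023546), of 32883 genes in the deposited table. All 4 were among the 13685 genes that passed a filter of at least 1.5 CPM (the count scaled by the library total) in at least 3 libraries. Hspa5, Hsp90b1 and Hsph1 passed it in 16 of 16 libraries, and Hspb1 in 5 of 16. The fetuses were Wistar rats whose mothers were kept in constant darkness. Mothers of Group A had sham surgery and free access to food, and mothers of Group B had their own SCN lesioned and were fed for a restricted part of each day. In each group 1 library was made at each of 8 circadian times from CT0 to CT21, 3 h apart, and CT12 marks the start of maternal activity in Group A and of food access in Group B. Each library pooled the SCN of several fetuses of a single litter, so that circadian time and litter cannot be told apart. The labels give 8 pooled fetuses and embryonic day 17, whereas the methods give an older embryonic age and a varying number of fetuses for Group B. The methods describe that age as a range spanned by the sampling over the circadian times. Fetal age may therefore differ between libraries and be mixed with circadian time. The maternal lesion and the feeding schedule were always combined in Group B, so they cannot be told apart either. The total count of a library lay between 10746066 and 12781966 for Group A and between 10047500 and 18738585 for Group B. The first principal component of the libraries held 23.8% of the variance in log2 CPM, and its correlation with the log2 CPM of the chaperones was 0.27 for Hspa5, 0.51 for Hsp90b1, 0.45 for Hsph1 and -0.05 for Hspb1. Its part in the results was examined by a fit with this component as a covariate, given beside the rhythms.

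Chaperones help other proteins to fold and keep them from clumping. Hspa5, also known as BiP, and Hsp90b1, an Hsp90 of the endoplasmic reticulum (ER), work on secreted and membrane proteins inside the ER. Both are classic targets of the unfolded protein response, in which the transcription factors ATF6 and XBP1 act through ER stress elements of their promoters. Hsph1 is a cytosolic relative of Hsp70 that helps Hsp70 to exchange its nucleotide, and Hspb1 is a small heat shock protein that holds unfolded proteins without using ATP. Both cytosolic genes are known targets of heat shock factor, which binds heat shock elements.

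The promoters of the 3 abundant genes are shown because Hspa5 and Hsp90b1 carry the ER stress element and Hsph1 carries a heat shock element. They are taken from RefSeq (build GRCr8) and hold the 250 bases before the annotated start of the gene, written 5′ to 3′ on the strand of the gene. Capitals mark the fixed letters of the ER stress element (CCAAT and CCACG with 9 bases between them) in Hspa5 and Hsp90b1, and those of the heat shock element (TTC, GAA and TTC with 2 bases between neighbours) in Hsph1.
Hspa5 (chr3:38452766-38453015, plus strand): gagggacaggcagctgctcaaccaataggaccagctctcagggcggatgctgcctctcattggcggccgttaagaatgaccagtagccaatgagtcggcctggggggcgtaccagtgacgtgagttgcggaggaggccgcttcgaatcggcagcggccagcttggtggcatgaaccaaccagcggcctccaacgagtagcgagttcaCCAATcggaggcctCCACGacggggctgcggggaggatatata
Hsp90b1 (chr7:23012294-23012543, minus strand): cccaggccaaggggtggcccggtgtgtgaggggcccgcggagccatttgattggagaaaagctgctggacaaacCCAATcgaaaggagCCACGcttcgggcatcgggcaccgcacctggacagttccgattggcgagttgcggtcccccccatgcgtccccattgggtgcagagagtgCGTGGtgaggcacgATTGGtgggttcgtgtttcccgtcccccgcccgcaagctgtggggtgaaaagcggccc
Hsph1 (chr12:10427118-10427367, plus strand): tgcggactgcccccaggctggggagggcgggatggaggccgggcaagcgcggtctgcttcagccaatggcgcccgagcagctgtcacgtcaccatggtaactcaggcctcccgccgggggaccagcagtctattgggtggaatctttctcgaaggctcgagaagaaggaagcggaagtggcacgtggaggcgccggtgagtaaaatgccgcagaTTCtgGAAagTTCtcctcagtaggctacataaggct

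Motifs were searched on both strands in the same window of all 33469 promoters of the RefSeq table, which held all 4 chaperone genes. The ER stress element occurred in 22 promoters (0.0657%). Among the chaperones it matched once in Hspa5, from 43 to 25 bases before the start, and it matched at 2 places in Hsp90b1. One of these lay from 176 to 158 bases before the start on the strand of the gene, and the other from 72 to 54 bases before it on the opposite strand, where it reads CGTGG and ATTGG. The heat shock element of 3 units matched once in Hsph1, from 36 to 24 bases before the start, and in 0.663% of all promoters. A shorter element of 2 units (GAA and TTC with 2 bases between them) is contained in that match and was also found at 2 places in Hspb1, against 7.23% of all promoters. The E-box CACGTG, the element bound by the clock proteins CLOCK and BMAL1, matched only in Hsph1 among the 4 chaperones and in 5.59% of all promoters. TGACGTG, a core of XBP1 and ATF6 sites, matched once in Hspa5 and once in Hsph1, and in 1.54% of all promoters. These matches describe letters in the windows only. Binding was not measured.

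Hspa5 was lowest in the early subjective day and highest at CT15 in both groups. In Group A its level was 405 CPM at CT0, 387 at CT3, 431 at CT6 and 471 at CT9. It was 513 CPM at CT12, 573 at CT15, 516 at CT18 and 412 at CT21. In Group B the level was 475 CPM at CT0, 422 at CT3, 456 at CT6 and 490 at CT9, followed by 521 at CT12, 584 at CT15, 558 at CT18 and 517 at CT21. The highest library thus exceeded the lowest 1.48-fold in Group A and 1.39-fold in Group B. The 4 night libraries of Group B (517 to 584 CPM) lay above its 4 day libraries (422 to 490 CPM), whereas in Group A the CT21 library lay among the day libraries. All 4 night libraries of Group B lay above all 4 day libraries for 374 of the 13685 genes tested (2.73%). The coefficient of variation over all 16 libraries was 12.7%, and counting error alone would give 1.31%.

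Hsp90b1 was lowest at CT6 in Group A and at CT3 in Group B, and its highest library was CT18 in Group A and CT15 in Group B. In Group A its level was 739 CPM at CT0, 628 at CT3 and 616 at CT6. It was 658 CPM at CT9, 706 at CT12 and 771 at CT15, was highest with 846 at CT18, and was 716 at CT21. In Group B the level was 767 CPM at CT0, 649 at CT3, 702 at CT6 and 701 at CT9. It was 754 CPM at CT12, was highest with 840 at CT15, and was 797 at CT18 and 746 at CT21. Day and night libraries overlapped in both groups, because the CT0 library was the highest of the day in each. The coefficient of variation was 9.48%, against 1.06% from counting.

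Hsph1 varied least, with a coefficient of variation of 4.75% against 1.83% from counting. In Group A it lay between 234 CPM (CT21) and 259 CPM (CT0), with a median of 244. In Group B it lay between 222 CPM (CT3) and 263 CPM (CT15), with a median of 250 CPM. Within Group B the 4 night libraries, from 257 to 263 CPM, all lay above the 4 day libraries, from 222 to 242 CPM, as for 2.73% of all genes. Within Group A day and night overlapped.

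Hspb1 was close to the limit of detection. Its count per library lay between 8 and 23 in Group A and between 5 and 29 in Group B, which gave medians of 1.19 and 0.96 CPM. The 2 highest libraries were CT12 of Group B (29 counts) and CT6 of Group A (23 counts), and the lowest were CT15 and CT18 of Group B (5 and 6 counts). The coefficient of variation of 39.9% compares with 25.9% from counting alone.

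**Figure D1:**
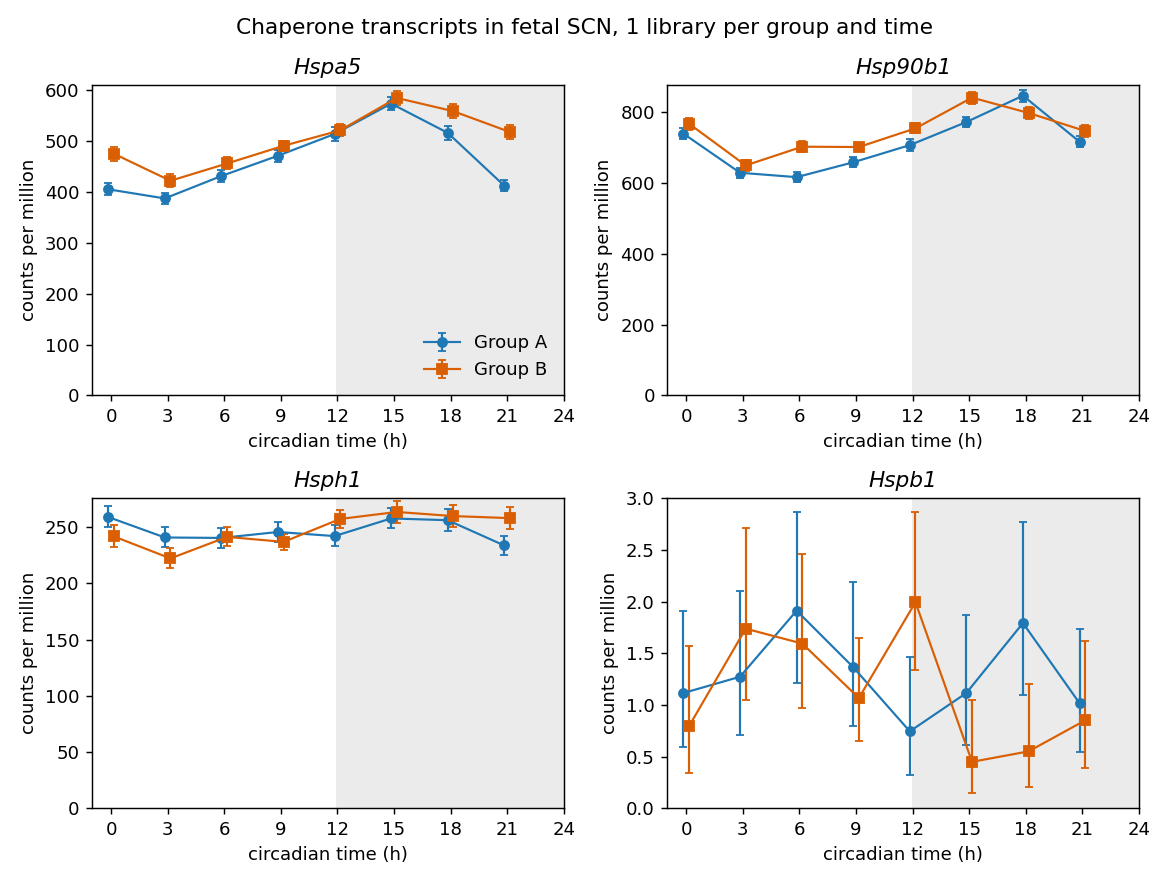
Level of each chaperone in CPM against circadian time, with 1 point per library and bars of the exact 95% Poisson interval, which covers counting error only. The shaded area is the subjective night from CT12. Hspa5 and Hsp90b1 were lowest at CT3 or CT6 and highest at CT15 or CT18, Hsph1 stayed between 222 and 263 CPM, and Hspb1 had wide intervals, although that of CT12 of Group B lay above those of CT15 and CT18 of Group B.

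The first question was whether the chaperones followed a 24 h rhythm shared by both groups. A cosine with common parameters was fitted to each gene over the 16 libraries and tested by edgeR (quasi-likelihood F test), with Benjamini-Hochberg adjustment over 13685 genes. Hspa5 and Hsp90b1 passed an adjusted p of 0.05, against 47 of all genes (0.343%). Hspa5 had the lowest p of all genes tested (rank 1, edgeR adjusted p = 0.0042). Its fitted peak at CT15.0 (standard error 0.45 h) was 1.36-fold above the trough, or 0.44 ± 0.053 (SE) on the log2 scale. Hsp90b1 ranked ninth (rank 9, adjusted p = 0.0321), with a peak at CT17.4 (SE 0.61 h) and a peak 1.26-fold above the trough (0.33 ± 0.053 on the log2 scale). The median peak-to-trough size over all genes was 0.16 on the log2 scale, and a fitted size is never below 0. Hsph1 did not pass (0.13 ± 0.048, adjusted p = 0.376), nor did Hspb1 (0.75 ± 0.41, adjusted p = 0.661). With the first principal component as a covariate, the adjusted p was 0.000825 for Hspa5 and 0.0158 for Hsp90b1, and 138 genes were called.

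Hspa5 kept its call with each of the 16 libraries left out in turn (adjusted p from 0.000428 to 0.0442, the highest without CT3 of Group A), and it ranked first in 14 of these 16 fits. The call of Hsp90b1 was lost in 8 of 16, namely without CT3 (adjusted p = 0.0762), CT9 (0.0539) or CT18 (0.0747) of Group A, and without CT0 (0.0515), CT3 (0.0721), CT6 (0.0516), CT12 (0.0594) or CT18 (0.0571) of Group B. DESeq2's likelihood ratio test called both genes (adjusted p = 6.76e-12 for Hspa5 and 7.03e-06 for Hsp90b1), among 2.91% of 10236 genes.

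**Figure D2:**
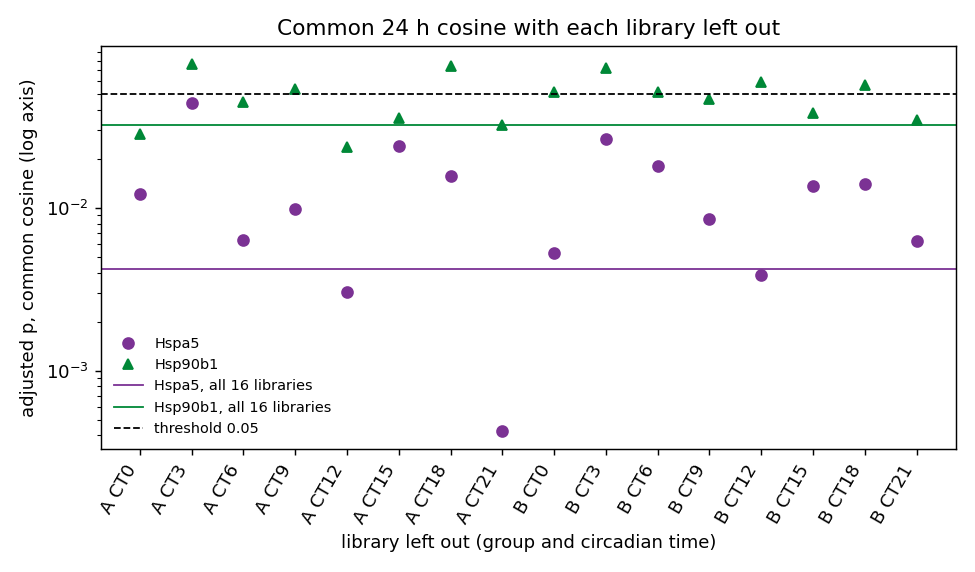
Adjusted p of the common 24 h cosine, on a log axis, with the library named on the horizontal axis left out. Solid lines give the values with all 16 libraries and the dashed line the threshold of 0.05. The circles of Hspa5 stay under the dashed line, and 8 of the 16 triangles of Hsp90b1 lie above it.

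The groups were then fitted with separate cosines, whose median size over all genes was 0.21 on the log2 scale in Group A and 0.22 in Group B. In Group A Hspa5 was the only gene called (1 of 13685, or 0.00731%), with a peak at CT14.2 (SE 0.51 h), 1.42-fold above the trough (0.51 ± 0.067 on the log2 scale, edgeR adjusted p = 0.0377). This call held in 2 of 16 fits with a library left out, namely without CT0 or CT21 of Group A, and reached adjusted p = 0.233 without CT15 of Group A. With Group A fitted alone the adjusted p was 0.418. In Group B Hspa5 peaked at CT16.0 (SE 0.64 h), 1.32-fold above the trough (0.40 ± 0.067), and did not pass the threshold (edgeR adjusted p = 0.0514), which 13 genes passed (0.095%). It was called in 5 of 16 fits with a library left out, namely without CT0 (adjusted p = 0.0476), CT6 (0.04999), CT12 (0.0483), CT15 (0.0408) or CT21 (0.0378) of Group A. Hsp90b1 had a peak-to-trough size of 0.39 ± 0.074 in Group A, peaking at CT17.9 (adjusted p = 0.439), and 0.27 ± 0.074 in Group B, peaking at CT16.8 (adjusted p = 0.270). DESeq2 called Hspa5 in both groups (adjusted p = 6.15e-09 in Group A and 7.43e-05 in Group B) and Hsp90b1 in Group A (adjusted p = 0.0022), among 0.345% of 8113 genes in Group A and 0.972% of 13685 in Group B. Hsph1 gave 0.07 ± 0.066 in Group A (adjusted p = 0.914) and 0.21 ± 0.066 in Group B (adjusted p = 0.381). The Group A size of Hsph1 was 0.10 without CT0, 0.04 without CT18 and 0.14 without CT21 of Group A, and 0.04 with the first principal component as a covariate. Hspb1 gave 0.28 ± 0.57 and 1.43 ± 0.60 (adjusted p = 0.974 and 0.540). Its Group A size was 0.83 without CT18 of Group A, and its fitted peak there moved from CT4.0 to CT20.7 without CT6 of Group A.

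Whether the cosines differed between the groups was tested directly. None of the 4 chaperones passed, and neither did any other gene (0 of 13685, 0.0%). At an unadjusted p under 0.05 there were 836 genes (6.11%), and DESeq2 called 4 genes (0.0292%). The size of the difference, as the peak-to-trough of the difference between the fitted curves, was 0.24 ± 0.095 on the log2 scale for Hspa5 (edgeR adjusted p = 0.810). It was 0.14 ± 0.10 for Hsp90b1, 0.15 ± 0.094 for Hsph1 and 1.24 ± 0.83 for Hspb1 (adjusted p = 0.896, 0.869 and 0.886). The earlier fitted peak of Hspa5 in Group A than in Group B was therefore not separated from the scatter of the libraries.

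**Figure D3:**
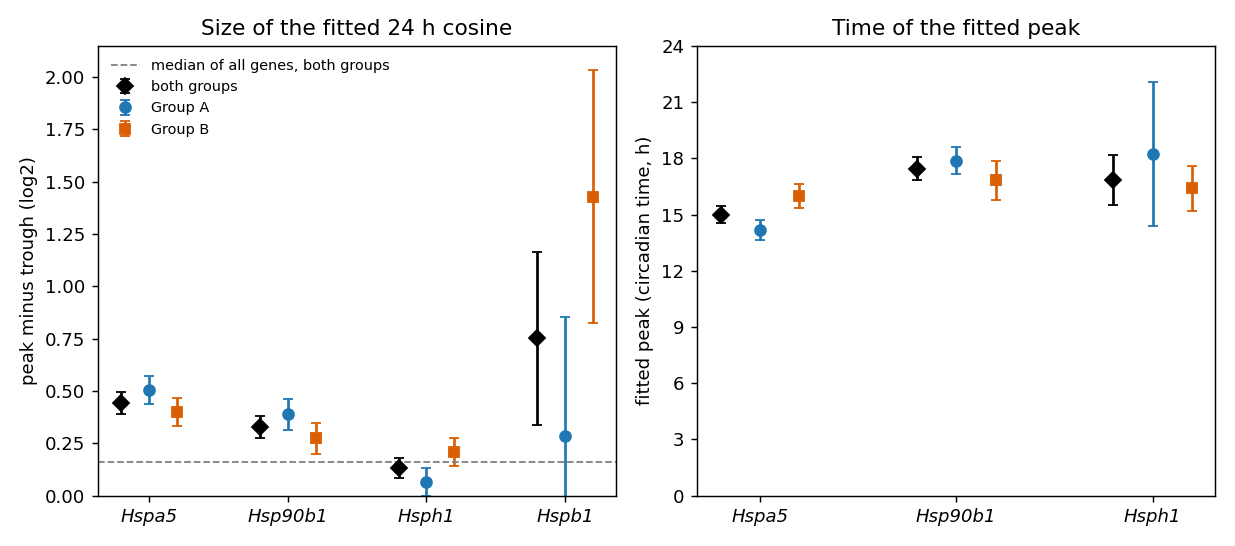
Left, fitted peak minus trough on the log2 scale for each chaperone, over both groups (diamonds), in Group A (circles) and in Group B (squares), with bars of 1 standard error drawn above 0. Right, the time of the fitted peak with its standard error for the 3 abundant genes. The dashed line is the median over all genes of the fit to both groups (0.16). The diamonds of Hspa5, Hsp90b1 and Hspb1 lie above it and that of Hsph1 below, and Hspb1 has by far the widest error bars.

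Each gene was also assigned to 1 of 5 models by its Bayes information criterion weight (BICW), a share of support that sums to 1 over the models, with an assignment above 0.5. The models were no rhythm, a rhythm of Group A alone (Arhy) or of Group B alone (Brhy), one rhythm shared by the groups (ABsync) and a rhythm of each group with its own parameters (ABdiff). Hsp90b1 was assigned to ABsync (BICW 0.860), as were 5.03% of all genes, and it moved to ABdiff (BICW 0.527) without CT21 of Group A. Hspa5 was split between both models with rhythms in both groups, with a BICW of 0.554 for ABdiff, to which 0.307% of all genes were assigned, and 0.446 for ABsync. It moved to ABsync in 6 of 16 fits with a library left out, namely without CT3, CT15 or CT21 of Group A or CT0, CT12 or CT21 of Group B, where the BICW of ABdiff fell to between 0.255 (without CT21 of Group A) and 0.498. With edgeR's dispersions it was also ABsync (BICW 0.689), whereas Gaussian fits gave ABdiff (BICW 0.862 on linear CPM). Hsph1 was assigned to Brhy (BICW 0.531), as were 4.3% of all genes, but kept this in only 5 of 16 fits with a library left out. Hspb1 was assigned to no rhythm (BICW 0.529), as were 69.2% of all genes, but to Brhy (BICW 0.602) by Gaussian fits to log2 CPM.

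Night (CT12 to CT21) was compared with day (CT0 to CT9) as a contrast that assumes no curve. Over both groups Hspa5 was 1.19-fold higher at night (0.25 ± 0.056 on the log2 scale, edgeR adjusted p = 0.0589) and Hsp90b1 1.13-fold higher (0.18 ± 0.049, adjusted p = 0.116). Neither passed, while 49 of 13685 genes did (0.358%). Both passed with DESeq2 (adjusted p = 0.0031 and 0.0263), which called 1.84% of 11562 genes. Hspa5 passed the edgeR test without CT9 (adjusted p = 0.0311) or CT21 (0.0266) of Group A, or without CT9 of Group B (0.0425). The night-to-day ratio of Hspa5 was 1.19-fold within each group (0.25 ± 0.082 in Group A and 0.25 ± 0.082 in Group B). The difference of these log2 ratios was -0.0003 with a 95% interval from -0.25 to 0.25. Hsp90b1 had 0.20 ± 0.071 in Group A and 0.16 ± 0.071 in Group B. Hsph1 had 0.001 ± 0.046 in Group A and 0.14 ± 0.046 in Group B (adjusted p = 0.331). The night-minus-day test called 0 genes in Group A (0.0%) and 1 in Group B (0.00731%). The difference between the groups was 0.14 ± 0.065 for Hsph1 (edgeR adjusted p = 0.997). Its unadjusted p was under 0.05, as were those of 4.16% of all genes, and 0 genes were called (0.0%). Hspb1 had -0.32 ± 0.30 over both groups (adjusted p = 0.717). The Hsph1 medians of night and day within Group B were 259 and 239 CPM.

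Hspa5 and Hsp90b1 were slightly higher in Group B, without passing the test. The 8 libraries of a group are its circadian times, so the SD and intervals given here include change over time. The mean level of Hspa5 was 463 ± 65.8 CPM in Group A and 503 ± 53.5 CPM in Group B (SD, n = 8 libraries each), and the ratio of Group B to Group A was 1.08-fold with a 95% interval from 0.963 to 1.21 (0.11 ± 0.077 on the log2 scale, edgeR adjusted p = 0.889). Hsp90b1 averaged 710 ± 76.8 CPM and 744 ± 60.1 CPM, a ratio of 1.04-fold with an interval from 0.951 to 1.14 (0.06 ± 0.062 on the log2 scale, edgeR adjusted p = 0.930). This log2 difference was 0.04 without CT3, 0.03 without CT6 and 0.10 without CT18 of Group A, 0.03 without CT15 of Group B, and 0.03 with the first principal component as a covariate. For Hsph1 the ratio was 0.998-fold (interval 0.942 to 1.06) and for Hspb1 0.884-fold (interval 0.566 to 1.38), with edgeR adjusted p of 0.993 and 0.960. No gene was called by edgeR (0 of 13685, 0.0%) or by DESeq2 (0 genes), and 795 genes (5.81%) had an unadjusted edgeR p under 0.05.

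Set side by side at the same circadian time, Hspa5 was higher in Group B at 8 of 8 times, as were 0.621% of the genes tested. The gap ranged from 1.01-fold at CT12 to 1.26-fold at CT21, where the level was 412 CPM in Group A and 517 CPM in Group B. Hsp90b1 was higher in Group B at 7 of 8 times, the exception being CT18, and 5.17% of all genes were higher at 7 or 8 times. By CPM, Hsph1 was higher in Group B at 5 of 8 times and Hspb1 at 2 of 8. After TMM normalization, Hsph1 was instead lower in Group B at CT6 (log2 CPM 7.88 against 7.91 in Group A). The same held at CT18 (8.006 against 8.018), so its direction at these times depended on the scaling. The share of all genes higher at 5 of 8 times was not counted. With a cosine of each group in the fit, Hspa5 did not pass either (edgeR adjusted p = 0.358), and 0 genes were called.

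The chaperones were compared with each other over the 16 libraries by the log2 CPM after TMM normalization, in 6 pairs. Hspa5 and Hsp90b1 varied together (Pearson r = 0.72, Spearman rho = 0.72, permutation p = 0.0020 and 0.0021, adjusted over the 6 pairs to 0.0060 and 0.0128). Within Group B r was 0.92 (exact permutation p = 0.0020), whereas within Group A it was 0.59 (exact permutation p = 0.128). Without the 2 libraries farthest from the Hspa5 median, r was 0.59 and the pair did not pass (permutation p = 0.0279, adjusted 0.0774). Leaving out the extremes narrows the range of Hspa5, and no other 2 libraries were left out for comparison. Hsp90b1 and Hsph1 gave r = 0.72 and rho = 0.67 (permutation p = 0.0019 and 0.0057, adjusted 0.0060 and 0.0172), with 0.69 within Group A, 0.88 within Group B and 0.77 without the 2 farthest libraries. Hspa5 and Hsph1 gave r = 0.62 and rho = 0.59 (permutation p = 0.0122 and 0.0182, adjusted 0.0245 and 0.0364). That pair had r = 0.44 within Group A and 0.94 within Group B, and 0.56 without the 2 farthest libraries (adjusted permutation p = 0.0774). Whether a correlation differed between the groups was not tested. Hspb1 gave negative r with all 3 others, from -0.45 to -0.30, and no pair passed (lowest adjusted permutation p = 0.101). The libraries share circadian times in pairs, and the permutations treat them as exchangeable.

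Among the other 13684 genes, Hsp90b1 ranked 63rd by its r with Hspa5 (rank 63), and the median r of all genes with Hspa5 was -0.004. Hsph1 ranked lower by its r with Hspa5 (rank 281), and it had rank 68 by its r with Hsp90b1. By r with Hsph1, Hspa5 had rank 191 and Hsp90b1 rank 28. The 5 genes nearest to each chaperone, among those with a mean of at least 10 CPM, made up 20 genes, and 0 of them were listed for more than 1 chaperone. Each list was drawn from 9484 or 9485 candidates, and how often such lists overlap for other genes was not counted. The nearest to Hspa5 was ENSRNOG00000014201 (r = 0.90 over 16 libraries) and the nearest to Hsp90b1 was ENSRNOG00000003029 (r = 0.94). Their symbols are not paired with the identifiers in the tables used here.

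The ratio of 2 chaperones within a library does not depend on its normalization. The ratio of Hspa5 to Hsp90b1 counts in Group A was 0.548 at CT0, 0.616 at CT3 and 0.700 at CT6. It was highest with 0.743 at CT15 and was 0.610 at CT18 and 0.575 at CT21. In Group B it was 0.619 at CT0, 0.650 at CT3 and 0.649 at CT6, and lay between 0.691 and 0.700 from CT9 to CT21. A 24 h cosine of the log2 ratio, common to both groups, had a peak-to-trough size of 0.26 with a peak at CT11.8. Circadian times were shuffled within each group in a permutation test that was chosen after the values were seen (p = 0.0032, adjusted over 3 ratios to 0.0040). The ratio of Hspa5 to Hsph1 had a size of 0.33 and a peak at CT14.2 (permutation p = 9.0e-05, adjusted 0.00027). That of Hsp90b1 to Hsph1 had a size of 0.20 and a peak at CT17.8 (permutation p = 0.0040, adjusted 0.0040). All 3 passed in each of 16 fits with a library left out, with adjusted p of at most 0.0199. How many ratios to other genes would pass was not counted. The cosine held 60.6% of the variance within groups in the log2 ratio of Hspa5 to Hsp90b1, and at least as much in 38.9% of the ratios of Hspa5 to the 13654 genes with counts in every library. For Hspa5 to Hsph1 the share was 76.7%, reached by 13.1% of the ratios of Hspa5. For Hsp90b1 to Hsph1 it was 58.3%, reached by 27.0% of the ratios of Hsp90b1. The median share was already 53.2% over the ratios of Hspa5 and 40.7% over those of Hsp90b1, so passing is not particular to the chaperone pairs. A ratio shows unequal change and does not show which of its genes changed, and whether the course of a ratio differed between the groups was not tested.

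**Figure D4:**
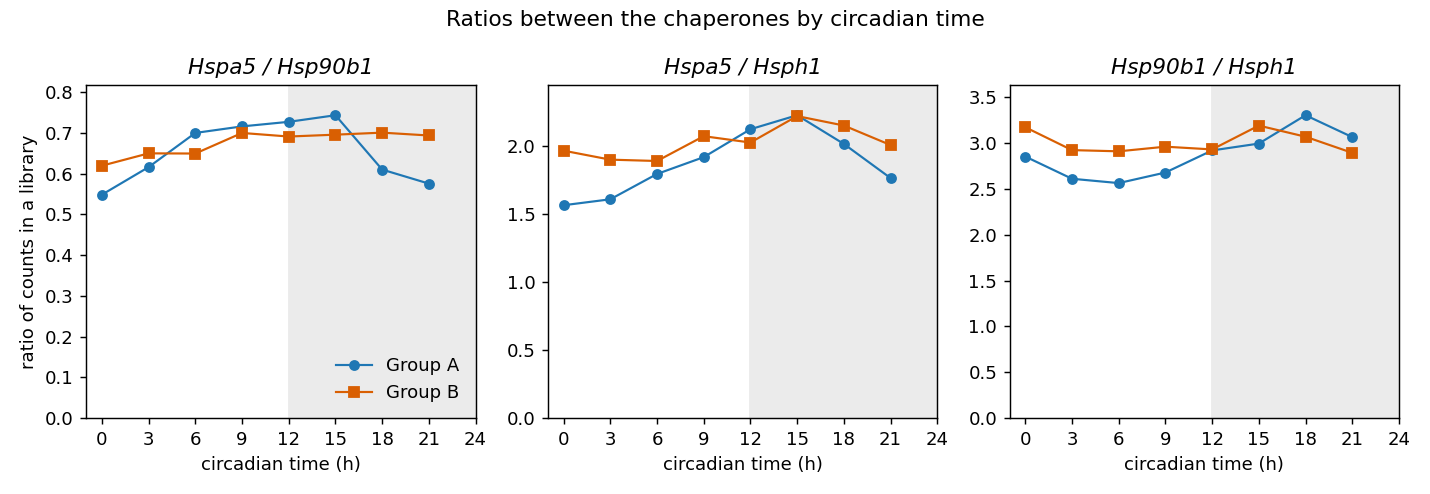
Ratio of counts of 2 chaperones in each library against circadian time, with Group A as circles and Group B as squares and the subjective night shaded. The ratio of Hspa5 to Hsp90b1 went from 0.548 at CT0 to 0.743 at CT15 and 0.575 at CT21 in Group A, and stayed between 0.619 and 0.700 in Group B.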

How the data were processed

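The 16 RNA-Seq libraries hold pooled fetal SCN. The authors removed rRNA and enriched polyA RNA, aligned reads to rn6 with HISAT2 2.1.0 and counted them with Salmon and StringTie, and the deposited values are raw counts per Ensembl gene. Columns were matched by group letter and circadian time. Genes reaching 1.5 CPM in 3 or more libraries were tested with edgeR 4.0.16 (R 4.3.3; TMM, quasi-likelihood test, Benjamini-Hochberg adjustment), and intervals of differences use the residual degrees of freedom. Model selection followed dryR with DESeq2 1.42.0 size factors and dispersions. Permutation tests (NumPy 2.4.6, SciPy 1.17.1) of correlations were two-sided, with 100000 resamples for 16 libraries and all orders for 8, and the ratio test used 100000 shuffles of times and tests the size of a cosine. The edgeR tests of group, common cosine and difference of cosines were run on simulated counts. So were the DESeq2 tests of group and common cosine, and the model selection. The permutation tests, the separate cosines, the night-minus-day tests and the motif search were not.

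With 1 library per group and time, p-values measure the scatter of libraries around a curve or mean. Around a mean, of a group or of night or day, that scatter also includes change over circadian time. Poisson intervals treat reads as independent molecules. The 4 genes and all lists were chosen with earlier results of these data known. Gene names come from the definition of the 4 genes, since the tables used here pair 0 Ensembl identifiers with symbols. Lists of other heat shock, unfolded protein response and immediate early genes and of cell type markers were therefore not analysed here, nor was the tissue label checked against markers. Of the 5 nearest genes per chaperone, only the first of Hspa5 and of Hsp90b1 is printed. Levels were not compared between genes.

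Alternatives were DESeq2 size factors and tests, no filter, circadian time as a block, cosines as covariates, each group fitted alone, each library left out and, for model selection, TMM, edgeR dispersions, Gaussian fits and a BICW threshold of 0.75. Thinning to the smallest total, the first principal component as a covariate, the ratio test and the test of the difference in night minus day were added after the data were seen.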

Additional observations from a re-analysis of the deposited data

How the results depend on the processing

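With 1 library per group and time, a rhythm rests on few points, and a single litter can decide a call. Over 892 alternative values, 788 kept their side of the threshold or their assigned model. Differences and correlations among them also kept their sign, whereas the peak time of a cosine was not compared. Of the 892, 32 changed sign, all of them from values that had passed no test. Many of the 892 belong to results that had passed no test, so they had no call to lose. Among called cosines, Hspa5 in Group A lost its call in 14 of 16 fits with a library left out. Hsp90b1 lost that of the common cosine in 8 of 16, whereas Hspa5 kept its own in 16 of 16, as did the 3 ratios.

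With a library left out, the size on the log2 scale ranged from 0.41 to 0.47 for the common cosine of Hspa5 and from 0.29 to 0.35 for that of Hsp90b1. It ranged from 0.46 to 0.55 for Hspa5 in Group A, from 0.37 to 0.42 in Group B, and from 0.22 to 0.29 for its night-minus-day difference. Group B minus Group A of Hsph1 ranged from -0.0178 to 0.0156, and its night-minus-day difference in Group A from -0.0200 to 0.0356. The difference between the groups in night minus day ranged from -0.0868 to 0.0692 for Hspa5, from -0.109 to 0.0201 for Hsp90b1 and from -0.78 to 0.19 for Hspb1. The BICW ranged from 0.255 to 0.783 (ABdiff, Hspa5), from 0.472 to 0.908 (ABsync, Hsp90b1), from 0.252 to 0.586 (Brhy, Hsph1) and from 0.366 to 0.688 (no rhythm, Hspb1).

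With Group A fitted alone Hspa5 kept its size of 0.51 and lost its call. The DESeq2 test added calls for Hsp90b1 in Group A (0.39), Hspa5 in Group B (0.40), and night minus day of Hspa5 (0.25) and Hsp90b1 (0.18). No filter (0.25) and the first principal component (0.24) also added night minus day of Hspa5. Its difference between the groups was 0.00096 with DESeq2 size factors and 0.00096 with the DESeq2 test. With edgeR dispersions the BICW was 0.311 for Hspa5, 0.410 for Hsph1 and 0.383 for Hspb1. For Hspb1 it was 0.281 with Gaussian fits on linear CPM and 0.184 on the log2 scale. In these 3 settings Brhy had the highest BICW for Hspb1 (0.416, 0.489 and 0.602), which made it an assignment to Brhy on the log2 scale. At a threshold of 0.75 the unchanged BICW of 0.554 (Hspa5), 0.531 (Hsph1) and 0.529 (Hspb1) gave no assignment. Among the correlations, those within Group A were 0.59, 0.44 and 0.69 for the 3 pairs that passed over 16 libraries, and 0.17 for Hsph1 with Hspb1. Within Group B, Hsp90b1 with Hspb1 passed at r = -0.77. Without the 2 farthest libraries, Hspa5 had 0.59 with Hsp90b1 and 0.56 with Hsph1. Apart from groups being fitted alone or libraries left out, the cause of these changes was not tested.

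Circadian time as a replicate block changed no call of Group B minus Group A. For Hspa5 the blocked value was 0.12 on the log2 scale (edgeR adjusted p = 0.528). Deviations of libraries of the same circadian time, correlated over all genes, gave r over 0.1 in 2 of 8 pairs (from -0.16 to 0.14). This r weighs all genes alike and was not compared with libraries of unlike times. It therefore cannot exclude that some genes deviate together, as those with a common cosine do. The replicate numbers were not treated as pairs in the main test.

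The number of genes called also moved. For the common cosine 47 genes became 298 with DESeq2, 138 with the first principal component, and 1 to 92 with a library left out. For Group A 1 gene became 28 with DESeq2 and 0 to 3 with a library left out, and for Group B 13 became 133 and 1 to 24. For night minus day 49 became 213 and 4 to 103, within Group A 0 became 0 to 22 over the settings with all libraries, and within Group B 1 became 1 to 73. The difference of the cosines gave 0 to 4 genes and that of night minus day 0 to 2. DESeq2 gave no adjusted p for Hspb1 in some tests, and no value is counted there.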
